A study of Petromyzon marinus with 6 samples.

Results

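In sea lamprey (Petromyzon marinus) whole embryos, 45 of 87262 assembled transcript units were near absent through day 3 after fertilization and clearly counted on day 4. By day 5, 16 of the 45 were lower by 2-fold or more, 7 were higher by 2-fold or more, and 22 lay within 2-fold of their day 4 level. Among all 11289 components that, like the members, had 5 CPM or more on day 4, 7.09% were lower and 6.41% higher by the same rule. Among the 5407 of these with a day 4 CPM no higher than the highest member's, 9.52% were lower and 10.3% higher. Of the 287 components that missed the choice given below only by their day 3 level, 22.6% were lower and 8.01% higher. A transcript unit here is a component of the submitters' assembly, that is, all contigs whose identifiers differ only in the sequence number, with their counts added. The 45 were chosen by their CPM on days 1 to 4, as components under 0.5 CPM on days 1, 2, 2.5 and 3 and at 5 CPM or more on day 4, where CPM stands for counts per 1000000, that is, the component's share of all expected counts of its library. These thresholds equal 8.8 to 11 counts in the 4 earlier libraries and 99.2 counts in the day 4 library.

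A lamprey embryo begins with RNA that the mother laid down in the egg. Its own genome is switched on during the blastula stages, and gastrulation then sets aside the germ layers from which the nervous system, muscle and gut form. In other vertebrates, genes silent in the egg and first used around gastrulation include many that lay out the body, and some of them are used only briefly. Sea lampreys also discard part of their DNA from body cells during early development.

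The study measured RNA from whole embryos in 6 paired-end libraries, 1 for each of 6 stages: days 1, 2 and 2.5 after fertilization, then days 3 to 5. The labels give no treatment, genotype or strain. The number of embryos pooled and their parents are not stated in the labels. A difference between stages therefore cannot be told apart from a difference between parents or between libraries. Because each stage had 1 library, no difference below has a replicate check, and no p-value is given. The intervals are exact 95% Clopper-Pearson intervals and cover counting error only. In whole embryos, a change in the number of cells that make a transcript and a change in RNA per cell cannot be told apart. The libraries held 15503408 (day 5) to 21910029 (day 1) expected counts, with 19845270 on day 4.

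The files hold contig identifiers without gene names, and 0 of 145913 contig identifiers occurred among the 45433 genes of the RefSeq name table. Members are therefore described by their rank, from 1 for the highest CPM on day 4 to 45 for the lowest, and by the length of their longest contig. Identifiers are printed for 4 of them: the pair with the highest day 5 CPM among those higher on day 5, and the pair with the highest day 4 CPM among those lower.

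The library of day 3 decided almost alone which components qualified. Of 11289 components at 5 CPM or more on day 4, 54 were under 0.5 CPM on day 3, whereas 438 were under it on day 2.5, 467 on day 2 and 1000 on day 1. Adding the limits on days 2.5, 2 and 1 to that on day 3 took the 54 to 47, 46 and 45. With the day 3 limit left out, 332 components passed, the 45 and 287 more. Those 287 had a median of 2.99 CPM on day 3 and 10.7 CPM on day 4. Thus most components that were near absent through day 2.5 and counted on day 4 were already above the limit on day 3.

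Near absent did not mean uncounted. Only 2 of the 45 had 0 counts in all 4 earlier libraries, those of ranks 29 and 45, which allows up to 0.137 to 0.170 CPM in each library (3 counts). The 45 had a median of 1 count on day 1, 1 on day 2, 1 on day 2.5 and 6 on day 3. In all, 18 were at 0 counts on day 1, 14 on day 2, 22 on day 2.5 and 5 on day 3. In 32 of 45 the day 3 library held the highest CPM of the earlier 4. Summed over the 45, the level was 3.24 CPM on day 1, 4.72 on day 2, 4.13 on day 2.5, 12 on day 3, 361 on day 4 and 577 on day 5. The start on day 4 was thus a step from a low trace, which in most members was highest on day 3. The low level through day 3 and the large step to day 4 follow from how the members were chosen. The limit was the same for the 4 earlier libraries, but the fewest components passed it on day 3. Whether the choice bears on which earlier library was highest was not tested. That order rests on 10 counts or fewer per library.

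At day 4 the members lay in a narrow range just above the limit. The lowest had 5.09 CPM (101 counts), the median 6.56 CPM (130 counts) and the highest 16.9 CPM (335 counts). Between 5 and 6 CPM lay 15 members, and 9 were at 10 CPM or more. Outside the limit, 20 further components with the same low earlier values had 4 to 5 CPM on day 4, the highest of them 4.89. At the other limit, 11 members had 0.4 CPM or more in an earlier library (highest 0.489), and 10 components just missed with a highest earlier value between 0.5 and 0.6 CPM (lowest 0.530). With 3 counts as the least value taken for day 3, the step from day 3 to day 4 was 11.7-fold to 65.6-fold, with a median of 29.0-fold. Together they took 0.0361% of the day 4 counts, so none was an abundant transcript.

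**Figure D1:**
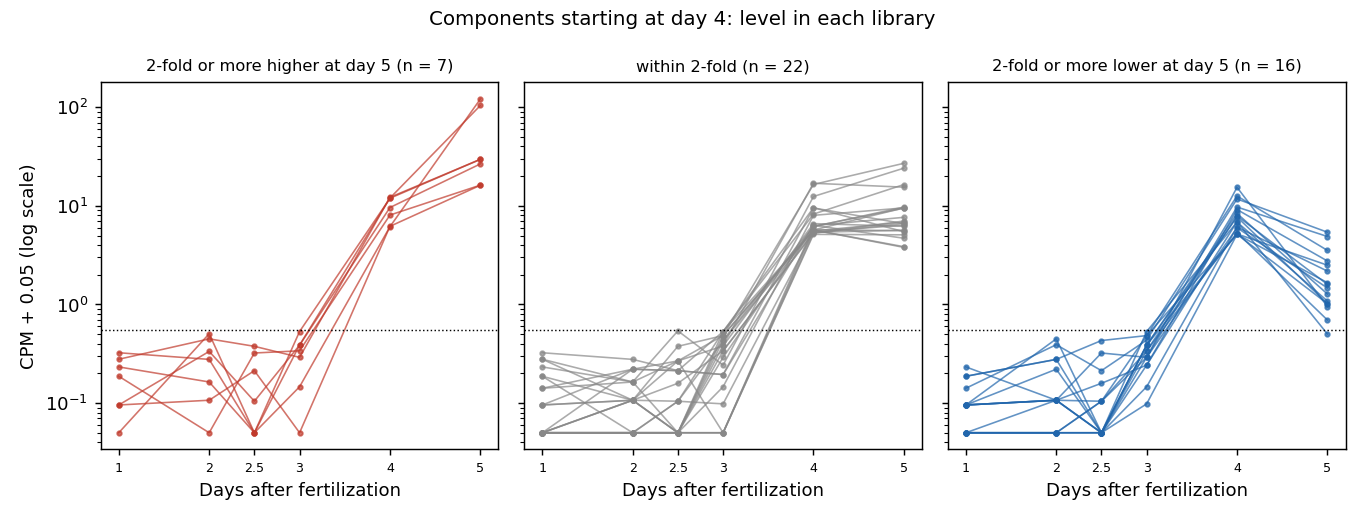
CPM plus 0.05 on a log axis in each of the 6 libraries (days after fertilization), 1 line per component, in 3 panels by the change from day 4 to day 5; the dotted line marks 0.5 CPM. All 45 lines lie under the dotted line through day 3 and at 5.09 to 16.9 CPM on day 4, and on day 5 they spread from 0.452 to 121 CPM.

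Day 5 was the library that the choice of members did not use, and there the 45 spread apart. Their CPM ran from 0.452 to 121, with a median of 5.61, and 27 were at 5 CPM or more. The day 5 level was above that of day 4 in 20 members and below it in 25. The median difference of log2(CPM + 0.5) between day 5 and day 4 was -0.08, with quartiles of -1.40 and 0.63. In all 11289 components at 5 CPM or more on day 4, the median was 0.06 and the quartiles -0.31 and 0.43. The day 4 value is in both the choice and the change, and its part in the difference was not tested.

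A component was called higher or lower on day 5 when its CPM ratio passed 2-fold and the counting interval of the ratio excluded 1. By this rule 15.6% of the members were higher and 35.6% lower. Against the 6.41% and 7.09% of the 11289 components stood 10.3% higher and 9.52% lower among the 5407 of them whose day 4 CPM was no higher than the highest member's. A wider set of 13199 components, which adds those at 5 CPM or more on day 5 alone, had 13.8% higher and 6.06% lower. Of the 287 components that missed only by their day 3 level, 8.01% were higher and 22.6% lower. The share of lower members was above that in each of these sets. The share of higher members was nearest to that of the 13199, a set whose added components had to be higher on day 5 than on day 4. These differences have no test.

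**Figure D2:**
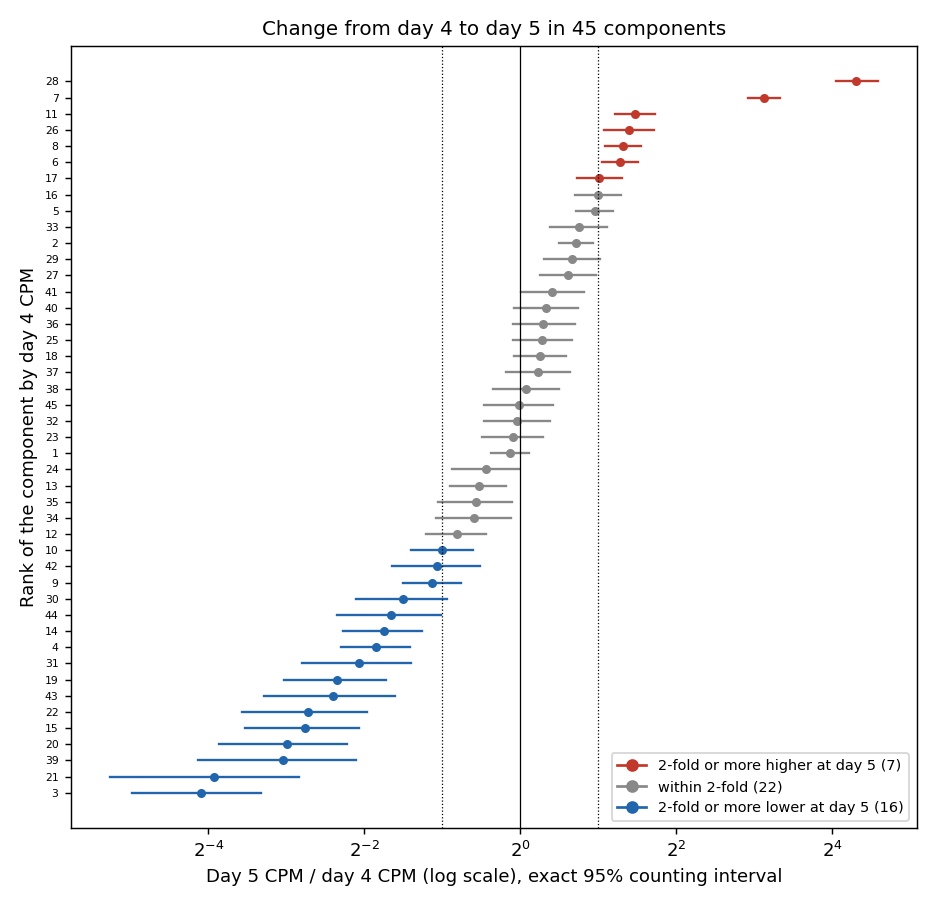
Ratio of day 5 to day 4 CPM on a log axis for each of the 45 components, sorted by ratio and numbered by their rank in day 4 CPM; bars are exact 95% counting intervals, and dotted lines mark 2-fold. The ratios run from 0.0587 (rank 3) to 19.9 (rank 28), with 16 components lower, 22 within 2-fold and 7 higher.

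The 7 members that were higher on day 5 included a pair far above the rest. The component lcl|comp175448_c0, 1 contig of 1612 nt and rank 28, had 0.183 CPM on day 1, 0.114 on day 2, 0 on day 2.5, 0.0963 on day 3, 6.10 on day 4 and 121 on day 5. Only 2 counts were seen on day 3, against 121 on day 4 and 1878 on day 5. It was 19.9-fold higher on day 5 than on day 4, with an interval of 16.5 to 24.1. From a place in the lower part of the day 4 order it became the highest member on day 5.

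The other of the pair, lcl|comp283604_c0, was 1 contig of 2216 nt and rank 7. Its CPM was 0.274 on day 1, 0.227 on day 2, 0 on day 2.5, 0.337 on day 3, 11.9 on day 4 and 104 on day 5. The ratio of day 5 to day 4 was 8.72, with an interval of 7.60 to 10.03. Both of the pair thus took a second large step between days 4 and 5. Together they held 225 of the 577 CPM that the 45 members reached on day 5, or 39.1%. The sum over all members was 1.60 times as high on day 5 as on day 4, but over the other 43 it was 1.02 times as high (343 and 351 CPM). The gain in the summed CPM thus lay mostly in this pair, which was picked by its day 5 level, so leaving it out had to lower the ratio. Among the other 43, gains and losses nearly cancelled. The 16 lower members fell from 129 to 31.7 CPM in sum. The 22 within 2-fold rose from 167 to 202 CPM, and the remaining 5 higher members rose too.

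The remaining 5 higher members lay between 16.1 and 29.6 CPM on day 5, 2.02-fold to 2.78-fold above day 4. Rank 11, 1 contig of 2891 nt, had 0.0456 CPM on day 1, 0.284 on day 2, 0.0544 on day 2.5, 0.337 on day 3, 9.57 on day 4 and 26.6 on day 5. Rank 26, 1 contig of 1188 nt, had 0 counts on day 3, 6.15 CPM on day 4 and 16.1 on day 5, a ratio of 2.62 (2.10 to 3.28). As a fold, the second step of ranks 11 and 26 was smaller than the first, which the limits on days 3 and 4 made large in advance. In CPM it was larger than the first. Rank 8, with a longest contig of 694 nt, went from 11.9 to 29.6 CPM, a ratio of 2.49 (2.12 to 2.93). Rank 6, 1 contig of 3172 nt, went from 12.1 to 29.5 CPM, a ratio of 2.43 (2.08 to 2.86). Rank 17, 1 contig of 3593 nt, went from 8.01 to 16.2 CPM, a ratio of 2.02 (1.65 to 2.48), and was within 2-fold with TMM factors, DESeq2 size factors or the deposited TPM. Per length, the deposited TPM of lcl|comp175448_c0 on day 5 was 138, that of lcl|comp283604_c0 was 85.0 and that of rank 8 was 84.5. TPM divides by length, and on that scale the short rank 8 component stood level with the second of the steep pair.

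The 16 members that were lower on day 5 went from a median of 7.26 CPM on day 4 to 1.48 on day 5. They had held 35.6% of the members' summed CPM on day 4 and held 5.50% on day 5. These members were grouped by their lower day 5 level, so both values had to fall. Highest among them on day 4 was lcl|comp94057_c1, 1 contig of 1428 nt and rank 3. It had 0.0456 CPM on day 1, 0.0568 on day 2, 0 on day 2.5, 0.241 on day 3, 15.4 on day 4 and 0.903 on day 5. In counts it went from 5 on day 3 to 305 on day 4 and 14 on day 5. Its ratio of day 5 to day 4 was 0.0587 (0.0317 to 0.1001), the lowest of the 45. This was a single-stage pulse in these libraries, with the day 5 level less than 4 times that of day 3.

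The next, lcl|comp283781_c0, was 1 contig of 1505 nt and rank 4. Its values were 0 counts on days 1 and 2, 0.0544 CPM on day 2.5, 0.433 on day 3, 12.5 on day 4 and 3.48 on day 5. The ratio was 0.278 (0.203 to 0.374). Its level fell by less than that of rank 3. All 16 lower members, both of these included, were above each of their earlier libraries on day 5. For all but rank 21 the limit of 0.5 CPM on earlier days fixed this, as they held more than that on day 5. Rank 21 had 4 counts on day 3, its highest earlier level in CPM, and 7 on day 5.

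In 9 of the 16 the day 4 level was at least 4 times the day 5 level. The share of all components with such a fall was not computed, so this count has no comparison. All 9 were single contigs, of 548 to 2246 nt, with 5.09 to 15.4 CPM on day 4 and 0.452 to 1.55 CPM on day 5. Besides rank 3 they were ranks 15, 19, 20, 21, 22, 31, 39 and 43. Rank 21, of 548 nt, had 136 counts on day 4 and 7 on day 5, and it alone was back under 0.5 CPM. Rank 39, of 1468 nt, had 105 counts on day 4 and 10 on day 5. Rank 15, of 1917 nt, had 0.0456 CPM on day 1, 0.398 on day 2, 0 on day 2.5, 0.337 on day 3, 8.31 on day 4 and 1.23 on day 5. Its trace on day 2 was thus as high as that on day 3. Rank 20, of 1499 nt, had 152 counts on day 4 and 15 on day 5, and rank 22, of 2246 nt, had 135 and 16. Rank 43, of 1388 nt, had 1 count in the 4 earlier libraries together, on day 3, then 101 on day 4 and 15 on day 5. The least steep of the 9 was rank 31, of 1382 nt, with 5.95 CPM on day 4 and 1.42 on day 5, a ratio of 0.239 (0.144 to 0.378). On day 5, 5 of the 9 were under 1 CPM and 4 were above it, and each was 2.14 to 20.1 times as high as in its highest earlier library. The choice of members capped those earlier levels, and these ratios rest on few counts and have no interval.

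The other 7, whose fall was less than 4-fold, went from 5.09 to 12.5 CPM on day 4 to 1.61 to 5.35 CPM on day 5. Of these, 5 held more than 1 contig, among them rank 30 with the longest contig of all members, 4331 nt, which had 120 counts on day 4 and 33 on day 5. Rank 9, with a longest contig of 4105 nt, went from 11.7 to 5.35 CPM, a ratio of 0.458 (0.352 to 0.591). Rank 14, of 2876 nt, had 181 counts on day 4 and 42 on day 5, a ratio of 0.297 (0.207 to 0.417), and all counts of those days lay on 1 of its 2 contigs. Rank 44, of 682 nt, carried one of the highest early traces, with 23 counts over the 4 earlier libraries, and went from 5.09 to 1.61 CPM. By the split at 4-fold, these members had to keep a larger part of their day 4 level than the 9 above. Rank 10 was at the limit, with 9.68 CPM on day 4 and 4.84 on day 5, a ratio of 0.4999 (0.378 to 0.656). Every member, the steepest included, still had 7 or more counts on day 5.

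The 22 members within 2-fold were not all level. In 10 of them the interval of the ratio held 1, with ratios of 0.912 to 1.25. In 7 the interval lay above 1, with ratios of 1.33 to 2.00, and in 5 it lay below 1, with ratios of 0.569 to 0.737. Rank 1, the highest on day 4, was among the 10: it had 0 counts on day 1, 0.0568 CPM on day 2, 0 on day 2.5, 0.337 on day 3, 16.9 on day 4 and 15.4 on day 5. Rank 45, 1 contig of 567 nt, had 0 counts in each of the 4 earlier libraries, 101 on day 4 and 78 on day 5, or 5.09 and 5.03 CPM. In these 10 no change from day 4 to day 5 was detectable beyond counting error.

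Among the 7, rank 2, with a longest contig of 810 nt, had 0 counts on days 1, 2 and 2.5, 0.433 CPM on day 3, 16.4 on day 4 and 27.0 on day 5, a ratio of 1.64 (1.42 to 1.90). Per length it was the highest member on day 4, with a TPM of 50.9. Rank 16 went from 8.20 to 16.4 CPM, a ratio of 2.00 that lay just under the limit before rounding. Among the 5, rank 12, of 1582 nt, went from 9.52 to 5.42 CPM, a ratio of 0.569 (0.435 to 0.739), and counted as lower with DESeq2 size factors. Rank 13, of 2866 nt, went from 9.47 to 6.54 CPM, a ratio of 0.691 (0.535 to 0.880). Rank 29 had 0 counts in the 4 earlier libraries, 121 on day 4 and 150 on day 5, a ratio of 1.59 (1.24 to 2.03). Rank 18, of 1736 nt, had 2 counts on day 3 and 0 before, and went from 7.96 to 9.48 CPM with an interval of the ratio that began at 0.945 and held 1. The 22 therefore include small gains and small losses as well as level members.

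Higher and lower members were found over most of the day 4 range. Of the 15 members at 5 to 6 CPM, 5 were lower, 10 within 2-fold and 0 higher. Of the 13 at 6 to 8 CPM, 5 were lower and 2 higher. Of the 11 at 8 to 12 CPM, 4 were lower and 4 higher, and of the 6 above that, 2 were lower and 1 higher. Over all 5407 components in the members' range of day 4 CPM, 10.3% were higher and 9.52% lower. Shares of all components within each band were not computed, so no pattern over the bands is read from these small counts. The trace on day 3 had a median of 6 counts in the higher, the lower and the intermediate members alike. The day 3 limit held every member to 10 counts or fewer there, so these medians had little room to differ.

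Most members were simple in their make-up. In 30 of 45 the component was a single contig, or 66.7%, against 47.6% of all 11289 components at 5 CPM or more on day 4 and 50.2% of the 5407 in the members' range of day 4 CPM. The longest contig had a median of 1468 nt over the members, 1967 nt over the 11289 and 1566 nt over the 5407. None reached 10000 nt. Of the single-contig members 6 were higher, 11 lower and 13 within 2-fold, and of the 15 with several contigs 1 was higher, 5 lower and 9 within 2-fold. Calls were not counted by contig number over all components, so these calls have no comparison. More of the members were thus single contigs than in either set. Their median length was under that of both sets, by little against the 5407. The early limits applied to counts summed over a component's contigs, so the choice itself may bear on both traits. This is a description with no test.

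In the 15 members with several contigs, single contigs could move more than their component did. The contig with most counts on day 4 still led on day 5 in 10 and was replaced in 5, those of ranks 1, 5, 16, 29 and 34. Rank 1 held 31 contigs, the most of any member. Its leading contig on day 4, of 2049 nt, took 37.2% of the counts there and 13.7% on day 5, while another of 1952 nt went from 20.7% to 45.5%. In rank 16 a contig of 2508 nt went from 62.8% to 25.3% and one of 2523 nt from 37.2% to 74.7%. RSEM, the program that made the counts, divides reads among contigs that they match equally well, so these shares are uncertain where contigs are near-identical. Component sums, as used above, do not depend on that division within a component.

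Members that shared an assembly number mostly moved alike. The identifiers carry a number and a subnumber, and 14 of the 45 fell into 7 pairs with the same number. The sources used here do not say what a shared number stands for. In 6 of the 7 pairs both members had the same call, and in 6 both moved in the same direction. The same was not counted for other components that share a number, so these counts have no comparison. Being within 2-fold in both members also counted as the same call. Ranks 3 and 21 were such a pair, with ratios of 0.0587 and 0.0659. Ranks 9 and 30, the members with the longest contigs, were both lower, and ranks 10 and 42 had ratios of 0.4999 and 0.477. Ranks 5 and 26 both gained, with ratios of 1.94 and 2.62 on either side of the limit. Taking the 38 numbers once each, by their higher member on day 4, gave 6 higher, 13 lower and 19 within 2-fold.

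**Figure D3:**
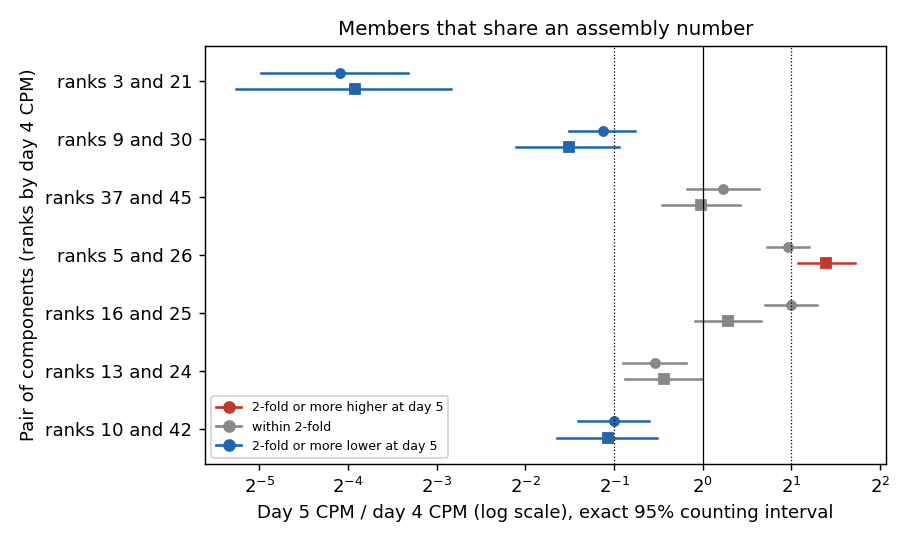
Ratio of day 5 to day 4 CPM on a log axis for the 7 pairs of members that share an assembly number, with exact 95% counting intervals; the circle is the higher-ranked and the square the lower-ranked member, and dotted lines mark 2-fold. In 6 of the 7 pairs both members have the same call.

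Some members carried the number of components that were counted long before day 4. Other components with the same number existed for 26 members, and in 15 of them these others summed to 0.5 CPM or more in an earlier library. In 5 the others reached 5 CPM or more before day 4. For rank 12 they stood at 1549 CPM on day 1, 1804 on day 3, 1954 on day 4 and 2059 on day 5, beside 9.52 CPM in the member on day 4. For rank 45 they included rank 37 and stood at 40.7 CPM on day 1, 10.9 on day 3 and 14.8 on day 4, beside 5.09 CPM in the member on day 4. In rank 8 the other component, at 1.20 CPM on day 3, 37.2 on day 4 and 81.0 on day 5, had the member's pattern and missed the limits by its early trace alone. For these 15 the number as a whole was thus not under 0.5 CPM in every earlier library, and the limits held for the assembled piece alone. From day 3 to day 4 the others rose too in most of the 15, as in rank 8, in rank 10 (1.88 to 29.5 CPM, rank 42 included) and in rank 44 (2.89 to 19.3 CPM). In rank 12 they changed little, and in rank 34 they fell (10.7 to 8.21 CPM). How reads were divided between components that share sequence was not tested.

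With the others included, the number as a whole stayed under 0.5 CPM in every earlier library for 28 of the 45. The 19 members with no other component among the 87262 held 3 higher, 7 lower and 9 within 2-fold. Of these 19, ranks 20, 22, 23, 39 and 40 carry a subnumber above 0. Whether their numbers once held further components is not known from the sources used here. Of the 11 whose others were also under 0.5 CPM early, 2 were higher, 6 lower and 3 within 2-fold. Among the 15 with early others, 2 were higher, 3 lower and 10 within 2-fold. Both directions occurred in all 3 kinds, the members with no other component among the 87262 included. The shares over all components of each kind were not computed, so these small counts have no comparison.

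The same rule moved to the other stages gave more components on day 3 and few on day 5. Under 0.5 CPM at every earlier stage and 5 CPM or more at the next were 135 components on day 3 and 8 on day 5. At their starting stage those of day 3 had a median of 9.29 CPM and a highest value of 68.7, those of day 4 had 6.56 and 16.9, and those of day 5 had 6.09 and 6.77. At 10 CPM or more were 64 of the 135, 9 of the 45 and 0 of the 8. One stage after their start, 40.0% of the day 3 starters were higher and 17.8% lower, where 7.18% and 24.2% of the 11737 components at 5 CPM or more on day 3 were. For the 45 the shares were 15.6% and 35.6%, where 6.41% and 7.09% of the 11289 components at 5 CPM or more on day 4 were. Of 276 components starting on day 2, 16.7% were higher and 9.78% lower on day 2.5, where 2.55% and 3.43% of 13478 were. Of 41 starting on day 2.5, 0 were higher and all 41 lower on day 3, where 5.74% and 41.1% of 13713 were. The share that was higher 1 stage later was thus smaller for the day 4 starters than for those of day 3, near that of day 2 and above that of day 2.5. The share over all components differed between these stages as well, and was 6.41% for day 4 and 2.55% for day 2. The share that was lower was above that of all components for the starters of days 2, 2.5 and 4. For those of day 3 it was below. The intervals differ in length and share libraries, and these differences were not tested.

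**Figure D4:**
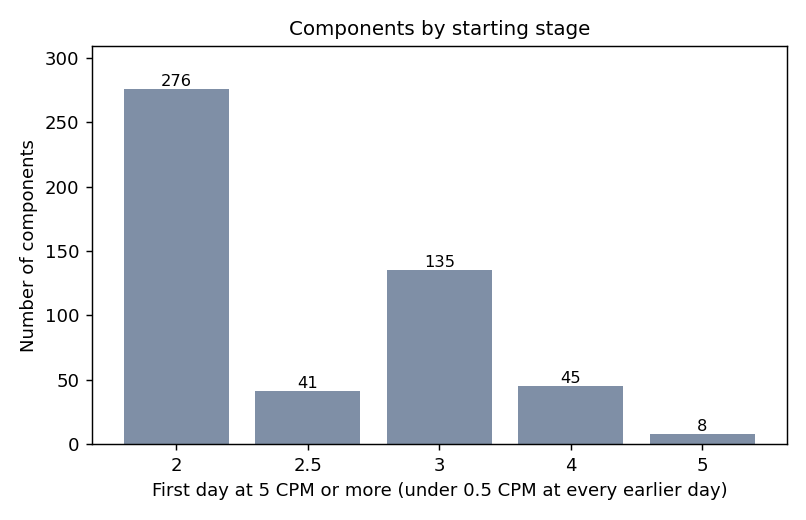
Number of components by the first day at 5 CPM or more, among those under 0.5 CPM at every earlier day of the series. The bars are 276 on day 2, 41 on day 2.5, 135 on day 3, 45 on day 4 and 8 on day 5, and the later days have more earlier libraries to pass.

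A few components were low on day 3 after a higher level before it. Besides the 45, 9 components at 5 CPM or more on day 4 were under 0.5 CPM on day 3 but passed that level in an earlier library. One of them had 0 counts on day 1, 0.455 CPM on day 2, 37.1 on day 2.5, 0.144 on day 3, 6.70 on day 4 and 10.6 on day 5. With the day 3 limit alone these 9 would have counted as starts on day 4.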

How the data were processed

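RNA from whole embryos was sequenced in 6 libraries, 1 per stage. Per the submitters' processing notes the values were made with RSEM; not given in the sources used here are its version, the aligner, the assembly method and any genome build. The deposited files, per the file headers, give for each contig a length, an effective length, an expected count (the authors' estimated count of fragments, not normalized) and a TPM (divided by effective length and scaled to sum to 1000000 per library). Every contig was entered as its own gene.

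Expected counts were summed by component and divided by library totals. They were rounded to whole numbers for intervals, for counts in the text and for scaling factors. Changes from day 4 to day 5 were called at 2-fold where the exact 95% Clopper-Pearson interval of the ratio excluded 1, over the whole table. The calling was tested on simulated counts that varied by counting error alone, so that test cannot show how it performs with variation between libraries. With 1 library per stage, no test across samples was made, so no p-value is given. Log2 differences have a pseudocount of 0.5 CPM, which understates the change of low components.

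Alternatives were TMM factors (edgeR 4.0.16), size factors (DESeq2 1.42.0), both from components with 60 or more counts in total, the deposited TPM, and other limits, folds, pseudocounts and units. Python 3.11.15, numpy 2.4.6, scipy 1.17.1, pandas 2.3.3 and R 4.3.3 were used. The members and lists were chosen with earlier results of these data known. Identifiers are printed for at most 2 members higher and 2 lower, by CPM, as the files hold no gene names. No sequences of the contigs were used here.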

Additional observations from a re-analysis of the deposited data

How the results depend on the processing

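No paired analysis was possible because there was a single library for each stage. The limits and the scaling both changed which components qualified. At the limits below (10, 0.25 and 1 CPM) the share of lower members was 33.3%, 37.5% and 36.3%, against 35.6%. The share of higher members was 33.3%, 12.5% and 19.6%, against 15.6%. At 10 CPM as many members were higher as lower. The sets at these limits overlap with the 45, so the shares are not independent of theirs. With the rule on TMM-scaled CPM 59 components qualified, with DESeq2 size factors 66 and with the deposited TPM 66, of which 40, 35 and 25 were among the 45. With the 45 kept, these scalings gave 6 higher and 16 or 17 lower; the median of 13199 components shifted from 0.17 to 0.08, -0.05 and 0.13 on the log2 scale, and that of the members to -0.17, -0.30 and -0.13. A day 4 limit of 3 CPM gave 120 members and one of 10 CPM gave 9, with 3 higher, 3 lower, 3 within 2-fold and a median of 0.70. A limit of 0.25 CPM at the earlier days gave 16 (2 higher, 6 lower, 8 within 2-fold), and one of 1 CPM gave 102 (20, 37 and 45). Leaving out day 3 gave 332, and leaving out day 1, 2 or 2.5 gave 46, 46 and 48. Single contigs gave 161, in 149 components, of which 39 were among the 45. Whole numbers gave 27, with 4 higher, 12 lower and 11 within 2-fold, a count of calls chosen after seeing the data. A 1.5-fold limit gave 13 higher, 18 lower and 14 between, and a 4-fold limit 2, 9 and 34. Shares over all components were not computed for the day 4 limit of 10 CPM, the other scalings, whole numbers or these folds. The counts of calls at those settings therefore have no comparison. Without a filter on the background, 8.81% of 72560 components were higher, against 13.8%, and 7.27% lower. At fewer than 3 counts a library cannot show absence.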
